A study of Mus musculus with 6 samples.

Results

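The genes described here encode the enzymes of cholesterol and fatty acid synthesis in mouse cells, together with the transcription factors and sterol sensors that control them. The list named 28 genes, and its rule is their place in the pathway, not a value on these arrays. Probes under their own name were found for 27 of the 28, among 27195 gene names on the array, and all 27 could be tested. Acat2, the cytosolic thiolase that joins acetyl units at the head of the pathway, had no probe under its own name. Of 2 probes named for its neighbour Acat3, 1 also lists the Acat2 transcript, so no value is given for Acat2.

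The arrays compared bone marrow stromal cells of 3 NONMMUT002667-KO samples (KO) with those of 3 wild-type samples (WT). NONMMUT002667 is a long non-coding RNA gene, and the stromal cells are the adherent cells of the marrow from which bone and fat cells arise. Per the labels, the cells came from femurs broken up with collagenase. A sort kept those with Sca-1 and CD29 on the surface and without CD45 or CD11b, and they were grown to the first passage. All samples are labelled male. Strain, age, the number of animals behind a sample and the way the gene was deleted are not given in the sources used here. The p-values below therefore measure only the spread between these 6 samples. The label fields for description and RNA extraction speak of human blood, whereas the titles, source names and series text, which were followed, speak of mouse stromal cells.

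Each sample was hybridised to 1 Agilent 1-colour array. Of the non-control spots, 49.0% to 53.02% were well above background on the KO arrays and 54.3% to 56.7% on the WT arrays. All 6 arrays lay on 1 slide, with the KO arrays in row 2 and the WT arrays in row 1 by the barcodes in the file headers, so slide row and group cannot be told apart. Same-numbered KO and WT arrays lay in the same column of the slide. The array names 0 NONMMUT transcripts, so the deletion was not checked on its target. Against the male label, KO replicate 1 and WT replicate 3 had clear signal for Xist, which coats the inactive X in females. Results were therefore also computed without both arrays. Macrophage markers, which the CD45 and CD11b gates should have removed, were well above background on all 6 arrays for 20 of 20 genes tested. In bulk RNA, a change in the number of cells of a type and a change in RNA per cell cannot be told apart.

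Cholesterol is built from acetyl-CoA through mevalonate, squalene and lanosterol. The enzymes of this route are switched on together by the transcription factor SREBP encoded by Srebf2 when sterols in the endoplasmic reticulum run low. Fatty acid synthesis draws on the same acetyl-CoA and is driven mainly by the SREBP encoded by Srebf1. When sterols are plentiful, Insig1 protein holds the SREBPs back in the endoplasmic reticulum. Fat cells, which marrow stroma can form, are known for high traffic through these pathways.

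RefSeq promoter windows (assembly GRCm38.p6, spanning the start of the gene) were at hand for 21 of the 28. The letters CCAAT, the binding element of the SREBP partner NF-Y, stood on either strand in 17 of the 21 windows (81.0%), against 41.1% of 27025 genes with a window. GGGCGG, the element of the partner Sp1, stood in 17 of the 21 as well, against 38.2% of all genes. By role, CCAAT was in 5 of 6 mevalonate pathway windows, 7 of 7 from squalene to cholesterol, 3 of 3 for the regulators and 2 of 5 for the fatty acid enzymes. TCACNCCAC, a form of the sterol regulatory element, was found in 1 of the 21, that of Hmgcs1, against 1.44% of all genes. These are letter matches on either strand, given as a description of the sequences, and a window without a match says nothing about binding. Shown are the windows of Hmgcs1, which holds all 3 motifs, of Insig1, the regulator with the clearest separation between KO and WT arrays, and of Fads2, the member with the largest difference. Capitals mark matches to the 3 motifs on either strand.
Hmgcs1 (chr13:119690101-119690400, plus strand): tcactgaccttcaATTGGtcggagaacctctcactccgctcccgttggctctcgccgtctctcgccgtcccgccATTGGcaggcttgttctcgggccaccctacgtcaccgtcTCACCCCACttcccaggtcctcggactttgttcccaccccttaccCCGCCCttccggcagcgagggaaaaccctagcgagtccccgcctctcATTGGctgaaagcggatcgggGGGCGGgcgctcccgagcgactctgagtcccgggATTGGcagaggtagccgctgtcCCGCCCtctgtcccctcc
Insig1 (chr5:28071162-28071461, plus strand): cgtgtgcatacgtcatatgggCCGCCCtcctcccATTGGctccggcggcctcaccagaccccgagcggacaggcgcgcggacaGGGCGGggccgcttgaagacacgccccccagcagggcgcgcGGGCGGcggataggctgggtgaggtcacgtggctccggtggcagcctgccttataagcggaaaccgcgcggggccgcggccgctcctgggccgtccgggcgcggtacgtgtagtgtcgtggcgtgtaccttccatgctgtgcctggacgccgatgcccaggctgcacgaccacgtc
Fads2 (chr19:10101454-10101753, minus strand): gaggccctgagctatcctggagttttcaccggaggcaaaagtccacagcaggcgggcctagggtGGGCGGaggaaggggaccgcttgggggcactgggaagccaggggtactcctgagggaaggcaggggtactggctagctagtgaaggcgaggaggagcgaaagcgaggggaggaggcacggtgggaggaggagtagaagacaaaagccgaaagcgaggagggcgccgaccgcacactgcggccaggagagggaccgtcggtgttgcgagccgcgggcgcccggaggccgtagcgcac
In the Hmgcs1 window the sterol regulatory element began at position -137 from the start, on the strand of the gene. No CCAAT was matched in the Fads2 window.

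None of the 27 genes passed the test between KO and WT (limma, Benjamini-Hochberg adjusted over 28607 probes; smallest adjusted p = 0.202). Over all 15371 genes tested, 12 passed, which is 0.0781% of them. At an unadjusted limma p under 0.05, 1 member was lower in KO (Fads2) and 2 were higher (Insig1 and Elovl6). The share over all genes at that p was 8.03% on the lower and 6.94% on the higher side, so the members' 3 of 27 is no larger than that background of 15% in either direction. All KO arrays lay above all WT arrays for 3 members (Insig1, Elovl6 and Acly), against 12% of all genes, and below them for 1 (Fads2), against 10.4% of all genes. Together that is 4 of 27 members, beside 22.4% of all genes whose groups were apart in either direction. The median log2 difference, KO minus WT, was 0.05 over the members and 0.02 over all genes.

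By the brightest probe of each gene, the arrays bounded the differences closely. For all 27 genes the 95% interval of that probe's difference, taken 1 gene at a time, stayed within a 2-fold change either way. For 25 of the 27 it stayed within a 1.5-fold change, and the 2 exceptions were Fads2 and Scd2. The lowest bound of any member was -0.66 (Fads2) and the highest 0.51 (Stard4) on the log2 scale. The median within-group SD was 0.101 over the members and 0.126 over all genes. The difference was under 0.25 in size for 24 of the 27 members (88.9%), against 79.9% of all genes.

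**Figure D1:**
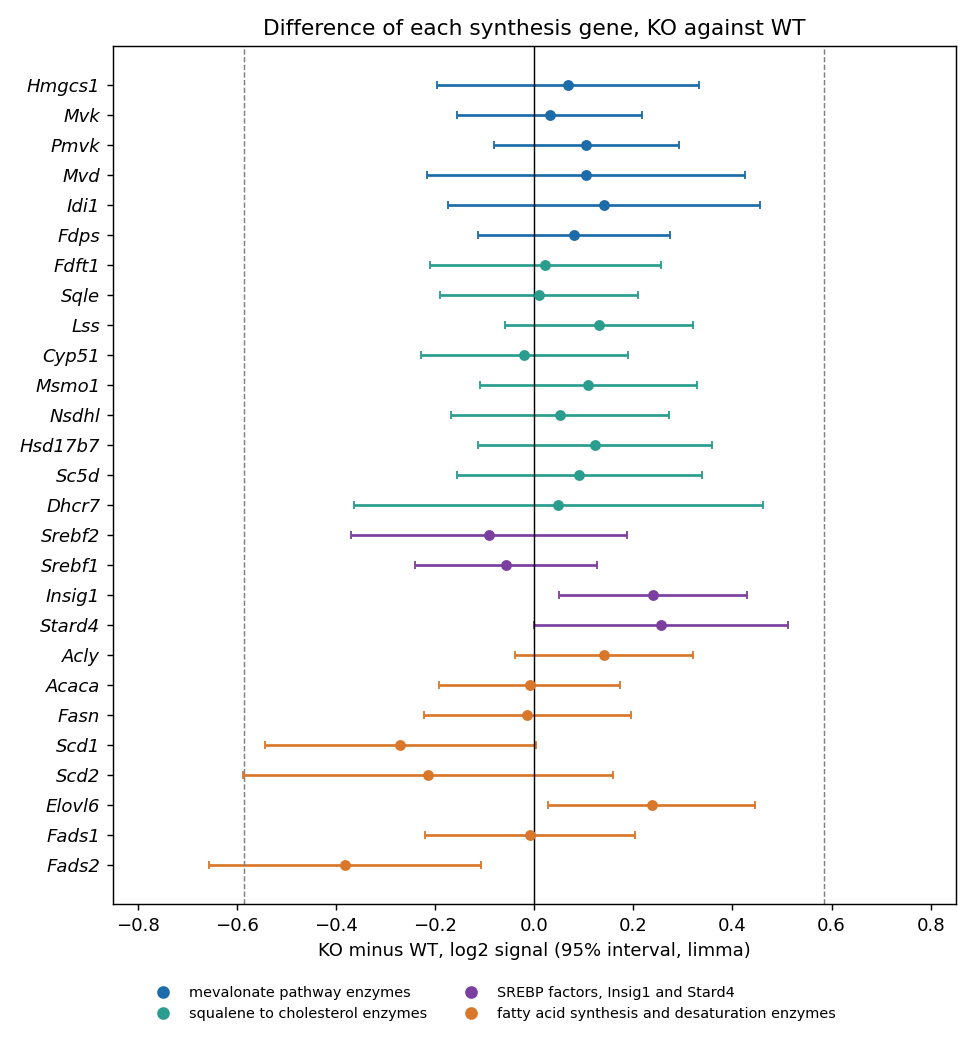
Log2 difference, KO minus WT, of the brightest tested probe of each of the 27 synthesis genes with its 95% interval from limma (n = 3 arrays each). Colours mark the roles and dashed lines a 1.5-fold change. The intervals of Fads2 and Scd2 cross a dashed line, and those of Insig1, Elovl6 and Fads2 leave out 0 before any adjustment for the number of genes.

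The mevalonate enzymes make the isoprenoid units of cholesterol. All 6 that were tested had small positive differences, with a median of 0.09, and 0 passed limma (0 at an unadjusted p under 0.05). Hmgcs1, the synthase that makes HMG-CoA, had log2 signals relative to the 75th percentile of each array of 3.10, 3.46 and 3.24 on the KO arrays and 3.18, 3.29 and 3.13 on the WT arrays. The highest value was that of KO replicate 2 and the lowest that of KO replicate 1, so the WT values lay inside the KO range. Its difference was 0.07 (SE 0.11, 95% interval -0.20 to 0.33; limma adjusted p = 0.824). Idi1, which isomerises isopentenyl diphosphate, had 1.80, 2.20 and 1.95 on KO arrays and 1.80, 2.02 and 1.71 on WT arrays. It repeated the order of Hmgcs1 among the KO arrays, with replicate 2 highest and replicate 1 lowest, and had the largest difference of the group at 0.14 (SE 0.13; limma adjusted p = 0.670). Fdps, the farnesyl diphosphate synthase at the branch to dolichol and protein prenylation, averaged 3.83 ± 0.07 in KO and 3.75 ± 0.08 in WT (SD, n = 3 each; limma adjusted p = 0.697). Mevalonate kinase (Mvk), phosphomevalonate kinase (Pmvk) and the decarboxylase Mvd had differences of 0.03, 0.11 and 0.10 (limma adjusted p from 0.578 to 0.893), with KO and WT values that overlapped for each.

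From squalene to cholesterol, 8 of 9 enzymes had positive differences and 1, Cyp51, a negative one, with a median of 0.05, and 0 passed limma (0 at an unadjusted p under 0.05). Sqle, the squalene epoxidase that limits the flux of this branch, had 2.63, 2.84 and 2.68 on KO arrays and 2.68, 2.74 and 2.71 on WT arrays. All WT values fell within the KO range, and the difference was 0.01 (SE 0.08, 95% interval -0.19 to 0.21; limma adjusted p = 0.974). Squalene synthase (Fdft1) differed by 0.02 (SE 0.10; limma adjusted p = 0.942). Lss, which closes the sterol rings to lanosterol, had the largest difference here, 0.13 (SE 0.08; limma adjusted p = 0.489), with values of 0.99, 0.86 and 0.97 in KO and 0.74, 0.88 and 0.81 in WT. KO replicate 2 lay below WT replicate 2, so its groups overlapped. Cyp51, the lanosterol demethylase, averaged 1.24 ± 0.04 in KO and 1.26 ± 0.12 in WT. The methyl groups of lanosterol are then removed by Msmo1, Nsdhl and Hsd17b7, which had differences of 0.11, 0.05 and 0.12 (limma adjusted p from 0.612 to 0.841). Sc5d and Dhcr7, which act on the last double bonds, had differences of 0.09 and 0.05. Dhcr7 had the widest interval of the sterol enzymes, -0.36 to 0.46, with 0.29 on KO replicate 1 and 0.29 on WT replicate 1 and values from -0.24 to -0.01 on the other 4 arrays. Nsdhl lies on the X chromosome. Its values on the arrays with Xist signal were 0.27 (KO replicate 1) and 0.04 (WT replicate 3), the highest and the lowest of the 6.

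Taken over both stretches of the route, 14 of the 15 sterol enzymes among the members had a positive difference, where 55.8% of all genes did. The sizes were at most 0.14, and the split depended on the arrays used. It was 12 of 15 with median centring, where 48.3% of all genes were positive, 11 of 15 without KO replicate 1 and 9 of 15 without the 2 arrays with Xist signal. Genes of this route share their regulators and their arrays, so the 15 signs are not independent. Of 6 other sterol synthesis enzymes, described below, 2 had positive and 4 negative differences.

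Among the regulators, the SREBP genes themselves had small negative differences and Insig1 and Stard4 positive ones, and 0 of the 4 passed limma. Srebf2 averaged 2.27 ± 0.04 in KO and 2.37 ± 0.21 in WT, a difference of -0.09 (SE 0.12; limma adjusted p = 0.766). WT replicate 1, at 2.61, stood above the 5 other arrays, which lay between 2.23 and 2.31. Srebf1 had 3.06, 3.05 and 3.05 on KO arrays and 3.15, 3.17 and 3.01 on WT arrays (difference -0.06, SE 0.08; limma adjusted p = 0.782). Its KO values lay close together, and WT replicate 3 lay below them.

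Insig1, a target of the SREBPs that in turn restrains them, had -1.47, -1.52 and -1.64 on KO arrays and -1.74, -1.83 and -1.78 on WT arrays. Every KO value was above every WT value. The difference was 0.24, a 1.18-fold higher signal in KO (SE 0.08, unadjusted p = 0.0205, limma adjusted p = 0.233), and it did not pass. The groups also stayed apart with median centring, with normexp and quantile normalization and in the deposited series table. The other alternatives reused the same values, so they could not bring the groups together. Over all 15 alternatives the differences ran from 0.19 to 0.29. Stard4, a carrier of cholesterol between membranes, had 0.07, 0.14 and 0.29 in KO and -0.16, 0.09 and -0.19 in WT. WT replicate 2 overlapped the KO values. Its difference was 0.26 (SE 0.11; limma adjusted p = 0.322), but a dimmer Stard4 probe had -0.12 (limma adjusted p = 0.791).

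**Figure D2:**
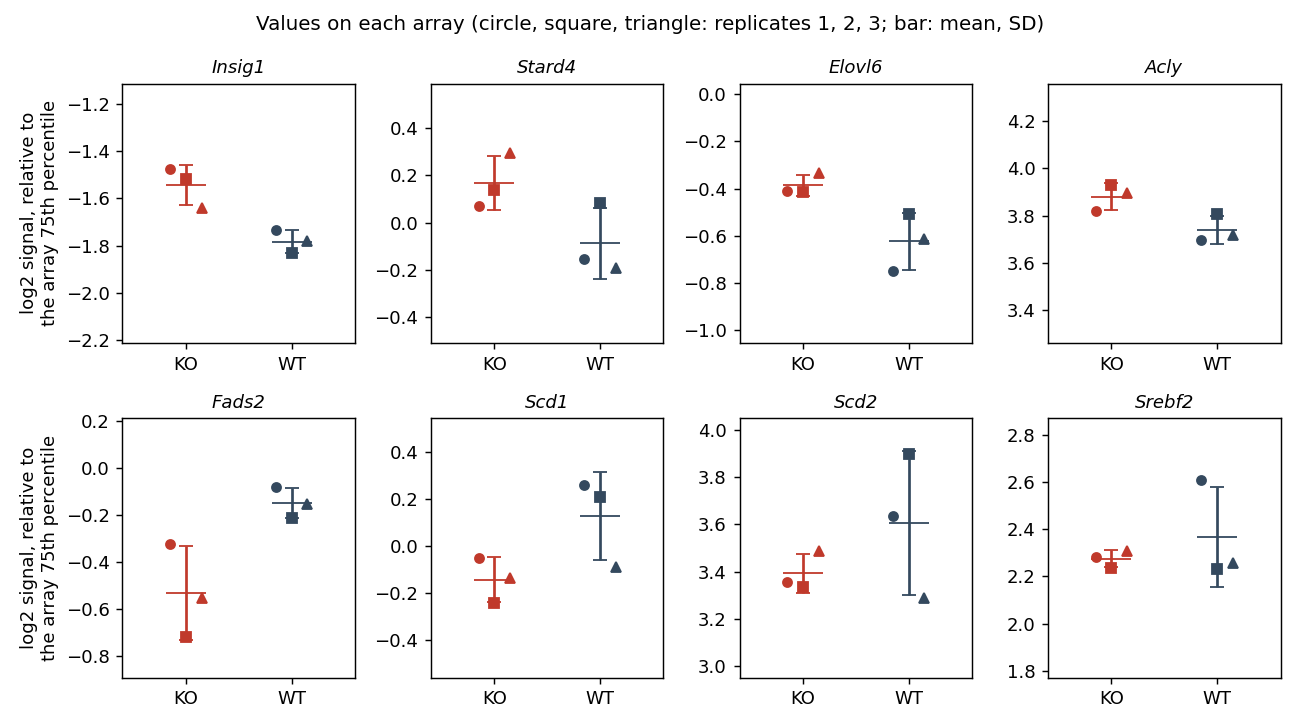
Log2 signal relative to the 75th percentile of the array for 8 members, KO left and WT right. Circle, square and triangle are replicates 1, 2 and 3, and bars give the mean and SD (n = 3 each). Each panel spans the same height on the log2 scale. KO and WT values do not overlap for Insig1, Elovl6, Acly and Fads2.

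The fatty acid enzymes were the most varied group, with 2 positive and 6 negative differences and a median of -0.01, and 0 of 8 passed limma. Fasn, the fatty acid synthase, had 4.55, 4.43 and 4.39 in KO and 4.45, 4.58 and 4.38 in WT (difference -0.01, SE 0.09, 95% interval -0.22 to 0.19; limma adjusted p = 0.960). Acaca, the acetyl-CoA carboxylase that commits carbon to fatty acids, had a difference of -0.01 (95% interval -0.19 to 0.17; limma adjusted p = 0.972). For both genes the KO and WT values were interleaved. Acly, which releases cytosolic acetyl-CoA from citrate for both pathways, had 3.82, 3.93 and 3.89 in KO and 3.70, 3.81 and 3.72 in WT. The lowest KO value cleared the highest WT value by little, and the groups overlapped with median centring, with normexp and quantile normalization and in the deposited series table. Its difference was 0.14 (SE 0.07; limma adjusted p = 0.434). Elovl6, which lengthens palmitate to stearate, had -0.41, -0.42 and -0.33 in KO and -0.75, -0.51 and -0.61 in WT. The groups of Elovl6 did not overlap in these values, nor under the same rescalings that made those of Acly overlap. The other alternatives reused the same values, so they could not have shown an overlap. The difference of Elovl6 was 0.24, 1.18-fold (SE 0.09, unadjusted p = 0.0320, limma adjusted p = 0.275).

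Scd1 and Scd2 are desaturases, which place double bonds, and make oleate from stearate. Scd1 had -0.05, -0.24 and -0.13 in KO and 0.26, 0.21 and -0.09 in WT, where WT replicate 3 fell among the KO values (difference -0.27, SE 0.11; limma adjusted p = 0.328). Scd2 had 3.36, 3.33 and 3.49 in KO and 3.64, 3.90 and 3.29 in WT. Its WT arrays spread more widely (SD 0.305) than its KO arrays (SD 0.0838), with WT replicate 3 the lowest of all 6, and the difference was -0.21 (SE 0.16, 95% interval -0.59 to 0.16; limma adjusted p = 0.571). Without WT replicate 3, 3 members lower in KO and 0 higher had an unadjusted limma p under 0.05, and without KO replicate 2 it was 1 lower and 0 higher. Over all genes it was 1025 lower and 801 higher of 15460 without WT replicate 3. Without KO replicate 2 it was 1031 lower and 813 higher of 15391. After adjustment 0 members passed in either case.

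Fads2, which opens the synthesis of long polyunsaturated fatty acids from linoleate and linolenate, had the largest difference of the 27. Its brightest probe had -0.32, -0.72 and -0.55 on KO arrays and -0.08, -0.21 and -0.15 on WT arrays. Every KO value was below every WT value. The difference was -0.38, a 1.30-fold lower signal in KO (SE 0.11, unadjusted p = 0.0136, limma adjusted p = 0.202), which did not pass. It ran from -0.60 to -0.29 over 15 alternatives (limma adjusted p from 0.0886 upward). Both the -0.60 and the 0.0886 came from the mean of the gene's tested probes. That mean takes in a probe, at 10163229, whose direction was fixed by the filter. Fads2 has 4 tested probes. On the minus strand of mm9 chromosome 19 they lie, from the brightest to the dimmest, at 10138750 to 10139180 (60 bases split over that span), 10137760 to 10137819, 10138149 to 10138208 and 10163229 to 10163288. The annotation of exons and introns was not used here. Their sequences are shown because the values of these probes are compared below, and no base is singled out in them.
Fads2 brightest probe: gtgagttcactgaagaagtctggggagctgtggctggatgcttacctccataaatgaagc
Fads2 probe at 10137760: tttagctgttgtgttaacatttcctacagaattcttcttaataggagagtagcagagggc
Fads2 probe at 10138149: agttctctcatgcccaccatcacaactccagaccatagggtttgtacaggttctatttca
Fads2 probe at 10163229: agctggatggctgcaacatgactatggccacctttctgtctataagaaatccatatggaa
The probe at 10137760 gave -0.83 (SE 0.22; limma adjusted p = 0.161), with all KO values below the WT values. The probe at 10138149 had -0.48 (SE 0.16; limma adjusted p = 0.245), and KO replicate 2 lay above WT replicate 3. The probe at 10163229 did not clear background in KO and was tested only through its WT signal, so that its direction was fixed by the filter. Its means were -4.49 in KO and -3.76 in WT as measured (adjusted p = 0.182 by limma), and because of that filter they are no measure of a decrease. None of the 4 passed. Another Fads2 probe, too dim to be tested, averaged -4.27 in KO and -4.35 in WT.

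Fads1, the neighbouring desaturase on the same chromosome that acts after Fads2, did not share this difference by its brightest probe. It had 0.81, 0.67 and 0.69 in KO and 0.66, 0.67 and 0.86 in WT (difference -0.01, SE 0.09, 95% interval -0.22 to 0.20; limma adjusted p = 0.976). Its 2 other tested probes disagreed in sign, with 0.16 (limma adjusted p = 0.615) and -0.67 (limma adjusted p = 0.523), and the probe at -0.67 was well above background on 1 of 3 KO arrays. Of the 15 members with more than 1 tested probe, 9 had probes of 1 sign and 6 did not. The 6 were Fads1, Stard4, Cyp51, Nsdhl, Lss and Sc5d. The count takes in dim probes of Acaca, Fads1 and Fads2 that were tested only through WT, so that the filter could set their lower KO value. A dim Acly probe, also tested only through WT, had a difference of 0.26 (limma adjusted p = 0.291), opposite to the side that filter favours. Higher KO values were, however, common among dim probes. Without the filter, 1208 of 27195 genes were lower and 6602 higher at an unadjusted limma p under 0.05. A dim Nsdhl probe had -1.18 on WT replicate 1 and between -2.86 and -2.35 on the other 5 arrays, so its difference of -0.33 rested on 1 array. A dim Cyp51 probe likewise had -1.01 on KO replicate 3 and between -2.19 and -1.99 on the other 5, with a difference of 0.40.

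**Figure D3:**
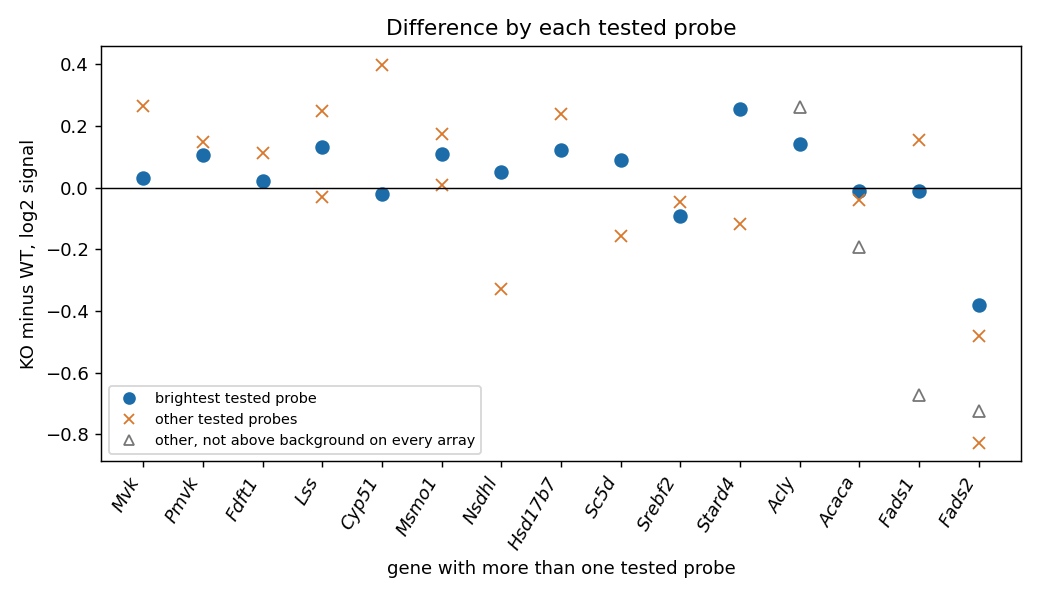
Log2 difference, KO minus WT, of every tested probe of the 15 members with more than 1, in the order of their roles. Circles are the brightest tested probes, used as the value of the gene, crosses the others, and open triangles those not well above background on every array. The triangles were tested only through WT, so the filter could set a lower KO value, but not the higher one of Acly. The Fads2 circle and crosses lie between -0.83 and -0.38, and its triangle is a probe not above background in KO.

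WT replicate 3 had the lowest value of the 6 arrays for 13 of the 27 members, where it was lowest for 14.7% of all genes, and KO replicate 1 the highest for 10 of the 27, where it was highest for 18.0% of all genes. These are the 2 arrays with Xist signal, and the part of that signal in the pattern was not tested. Within the groups, 7 members had their highest KO value on replicate 2 and their highest WT value on replicate 2, namely Hmgcs1, Idi1, Sqle, Msmo1, Sc5d, Cyp51 and Acly. Another 9 had both highest values on replicate 1, among them Mvd, Dhcr7, Nsdhl, Fdft1 and Fdps, and 0 had them on replicate 3. These sets were read from the values and carry no test. The same counts were not made over all genes, so they are not shown to be a trait of the members. The deviations of members from their group means correlated pairwise with a median r of 0.13 over 351 pairs, which is a description across 6 arrays that all pairs share. For pairs of sterol enzymes it was 0.08 over 105 pairs, and over all genes 0.01.

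**Figure D4:**
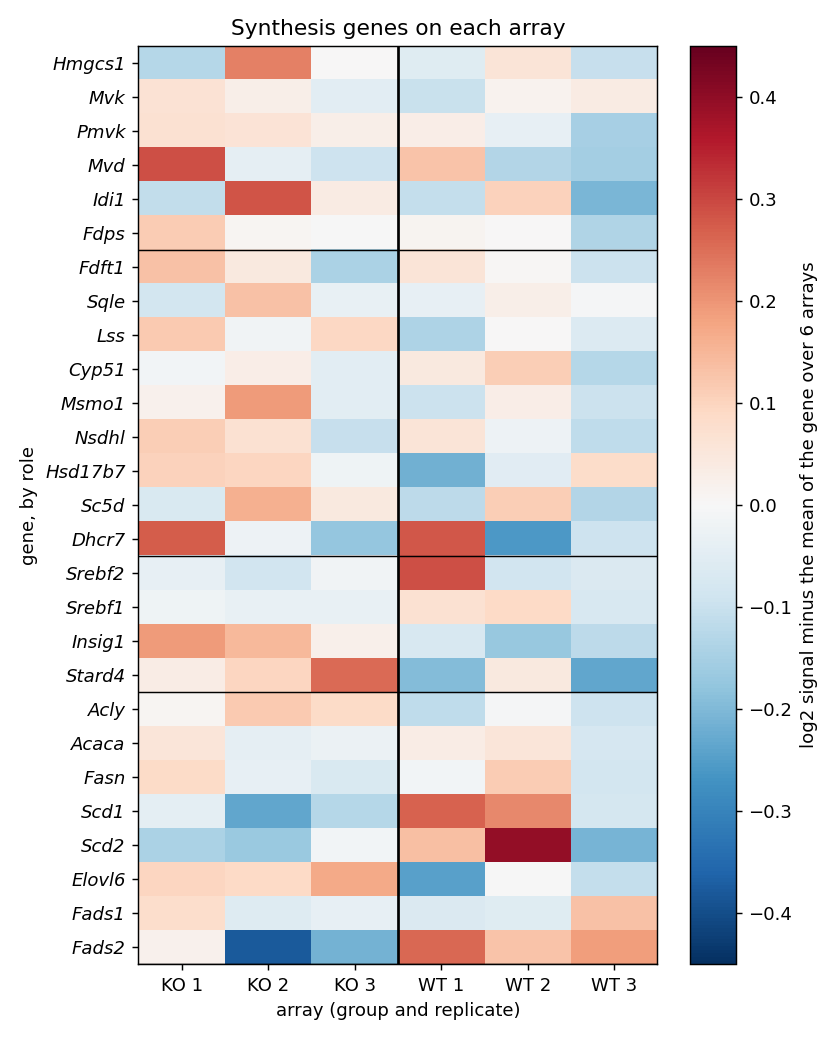
Log2 signal of each member on each array, minus its mean over the 6 arrays, with KO arrays left of WT arrays and genes grouped by role. Red is above and blue below the mean. WT replicate 3 is the lowest array for 13 of 27 genes, and for Fads2 all KO arrays lie below all WT arrays.

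Other genes of sterol and fatty acid metabolism were tested as 4 lists, 60 of whose genes were measurable, and 0 of the 60 passed limma. At an unadjusted limma p under 0.05, 3 were lower and 3 higher, beside 15% of all genes in either direction. All KO values lay below all WT values for 7 of the 60 and above them for 4, beside 10.4% and 12% of all genes. The median difference of the 60 was -0.01. Among 6 other sterol synthesis enzymes, the sterol isomerase Ebp gave -0.14 (SE 0.07; limma adjusted p = 0.417) and Lbr, which is also a protein of the nuclear envelope, 0.28 (SE 0.10; limma adjusted p = 0.248). All KO values lay below all WT values for Ebp, and above them for Lbr. The median of the 6 was -0.06, on the other side of 0 from that of the member sterol enzymes.

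Of 13 genes for SREBP processing and sterol uptake, Insig2, the second retention protein of the SREBPs, had the largest difference, with 1.780, 1.605 and 1.779 in KO and 1.953, 2.190 and 2.043 in WT. All its KO values were below its WT values, opposite to Insig1, and neither passed (difference -0.34, SE 0.10; limma adjusted p = 0.179). Mbtps1, the protease that first cuts the SREBPs, had -0.15 (limma adjusted p = 0.440) and Tmem97 -0.12 (limma adjusted p = 0.587).

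Of 14 genes of sterol export, storage and oxidation, the sterol esterifying enzyme Soat1 gave 0.25 (SE 0.10; limma adjusted p = 0.306) and the exporter Abcg1 0.19 (SE 0.08; limma adjusted p = 0.322). Hsd3b7 had 0.12 and the lysosomal lipase Lipa 0.15 (limma adjusted p = 0.547 and 0.549). Of 27 other fatty acid genes, Fads3, a desaturase of the same family as Fads1 and Fads2, had the smallest p. It had 3.65, 3.41 and 3.56 in KO and 3.90, 3.93 and 4.09 in WT, with no overlap (difference -0.43, SE 0.10; limma adjusted p = 0.119). Me1, the malic enzyme that supplies reducing power for fatty acid synthesis, had 2.93, 2.62 and 2.87 in KO and 3.07, 3.34 and 3.32 in WT, also without overlap (difference -0.44, SE 0.12; limma adjusted p = 0.170). Elovl4 had -0.30 and Mlxipl, the carbohydrate-responsive activator of lipogenic genes, 0.20 (limma adjusted p = 0.419 and 0.438).

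Markers of the osteoblast lineage differed more between KO and WT than these genes did. Over all genes, 8.03% were lower and 6.94% higher at an unadjusted limma p under 0.05, and 0.0781% passed after adjustment. Of 12 osteoblast lineage markers, 11 had an unadjusted limma p under 0.05 on the lower side and 1 on the higher side. After adjustment 2 passed, and the median difference of the 12 was -1.30. The 2 were Ibsp and Phospho1 (limma adjusted p = 0.0496 for each), named after their values were seen, and Phospho1 was tested only through WT, since it cleared background on 0 KO and 3 WT arrays. With the replicate block, without the filter on dim probes, without both arrays with Xist signal and without any 1 of KO replicates 2 and 3 or WT replicates 1, 2 and 3, 0 osteoblast markers passed limma (8 to 11 lower at an unadjusted p under 0.05). The signals of a list were also summed before taking log2, so that its brightest probes weigh most. For the osteoblast markers the log2 of this sum ran from 9.20 to 9.65 on KO arrays and from 9.90 to 10.01 on WT arrays. Of 9 adipocyte markers tested, 3 were higher at that p and 0 passed limma, with a median of 0.17. Their summed signal was 5.15 to 5.33 on KO arrays and 4.88 to 4.96 on WT arrays, with the probe of Fabp4 the brightest (means of 4.58 in KO and 4.19 in WT). The median level over the 9 overlapped, at -1.71 to -1.23 on KO arrays and -1.80 to -1.45 on WT arrays. Cidec, Cidea and Pck1 were too dim to be tested and Adipoq cleared background on 1 KO array. The 20 macrophage markers had a median of 0.13 (0 passed limma, 1 higher at an unadjusted p under 0.05), with summed signals of 10.57 to 10.66 on KO arrays and 10.47 to 10.53 on WT arrays. Their median level overlapped, at 4.56 to 4.67 on KO arrays and 4.31 to 4.57 on WT arrays. The 12 stromal progenitor markers had a median of -0.09, with summed signals of 6.50 to 6.63 on KO arrays and 6.54 to 6.66 on WT arrays. The part of any of these in the values of Insig1, Elovl6, Acly or Fads2 was not tested.

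**Figure D5:**
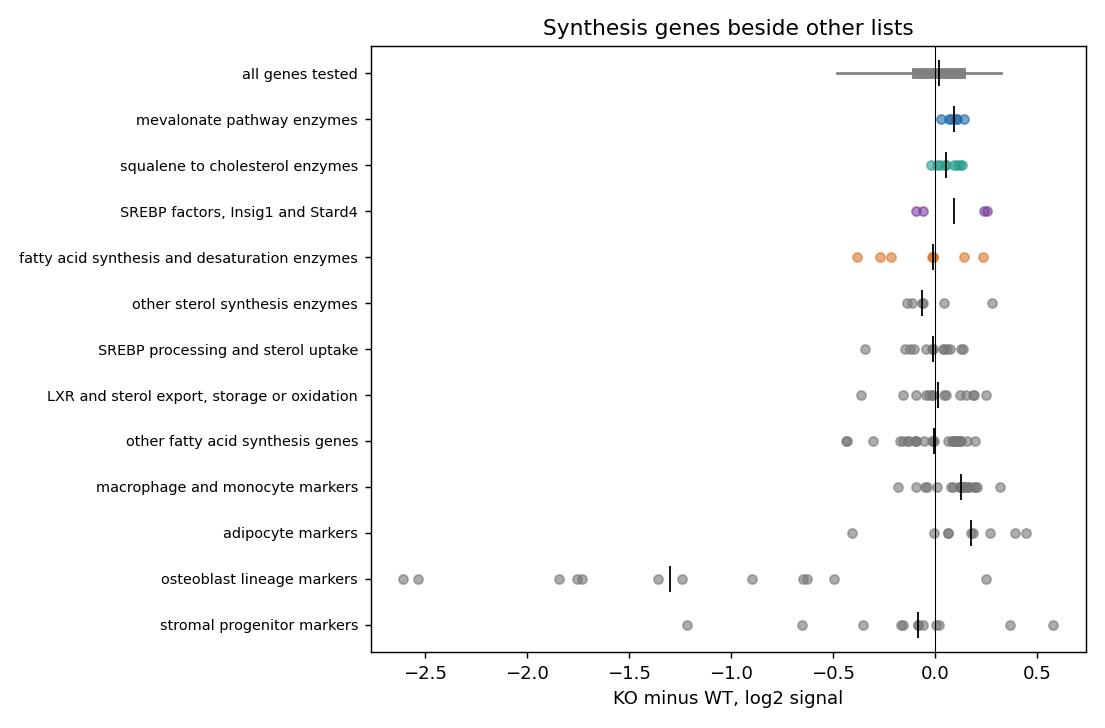
Log2 difference, KO minus WT, of the synthesis genes by role, of 4 lists of other lipid genes and of 4 lists of cell type markers, 1 point per gene, with black ticks at the medians. For all 15371 genes tested the thick bar spans the middle 50% and the thin line the middle 90%. The synthesis genes lie between -0.38 and 0.26, while the osteoblast lineage markers have a median of -1.30.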

How the data were processed

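The authors deposited scanner files with intensity per spot (processed signal, mean signal, local background). Feature Extraction made them, in version 10.7.1.1 per the file headers but 9.1 per the submitters' processing notes. The deposited series table holds log2 values in which every array has the same median of 6.15, and it tracks the scanner values array by array (r over 0.9999). Its further steps are not given in the sources used here. Probe positions refer to mm9.

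Log2 processed signals were set relative to the 75th percentile of the non-control spots of each array. Outlier spots were left out (49 to 131 per array) and spots of a probe averaged. Testing required signal well above background throughout KO or throughout WT, which left 28607 probes. Probes took their gene name from RefSeq (GRCm38.p6) by accession (32994 probes), symbol (10224) or synonym (520), or else from the scanner file (2574), while 10293 stayed unnamed. The brightest tested probe over all 6 arrays stood for a gene. Because other probes bind elsewhere or at other strength, levels were not compared between genes. KO and WT were compared with limma 3.58.1 in R 4.3.3 (two-sided, no covariates, 4 residual and 2.65 prior degrees of freedom), with Benjamini-Hochberg adjustment over all probes and a threshold of 0.05. The fit was tested on simulated data. The 15 alternatives changed the scaling, the filter on dim probes, the rule for several probes, the variance model, the block or the arrays used. Members, lists and tests were chosen with earlier results of these data known. All members are named. Of the other pathway lists, the 4 genes of each with the smallest p are named, except some that are not reported here. The number of arrays limits the precision.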

Additional observations from a re-analysis of the deposited data

How the results depend on the processing

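Under 15 alternatives, 0 of the 27 members passed limma, and 0 of the genes in the 4 role groups and the 4 lists of other pathway genes did. The members with an unadjusted p under 0.05, 1 lower and 2 higher as reported, numbered 1 to 3 lower and 0 to 3 higher over the alternatives. Over all genes, of which 14300 to 27195 were tested, these counts ran from 1006 to 1418 lower and from 699 to 6602 higher. The median difference of the members, 0.05, ran from 0.01 (KO replicate 1 left out) to 0.10 (KO replicate 3 left out) over the fits that lacked an array. Of the 27 members, 13 kept their sign in every alternative. The other 14, none with an adjusted p under 0.05, changed it in at least 1. With median centring the difference was -0.0052 for Fdft1 and -0.018 for Sqle. With normexp and quantile normalization it was -0.021 for Mvk, 0.016 for Cyp51 and 0.0072 for Acaca. With the mean of the probes it was 0.19 for Cyp51, -0.14 for Nsdhl and -0.032 for Sc5d. Without both arrays with Xist signal it was -0.066 for Mvd, -0.0055 for Fdps, -0.081 for Fdft1, -0.036 for Nsdhl, -0.11 for Dhcr7 and 0.013 for Fads1. With each array left out in turn it ran from -0.015 to 0.19 for Mvd, -0.039 to 0.10 for Fdft1, -0.074 to 0.20 for Dhcr7, -0.029 to 0.15 for Hmgcs1, -0.054 to 0.052 for Sqle and -0.049 to 0.016 for Acaca. It likewise ran from -0.060 to 0.039 for Fasn, -0.051 to 0.055 for Fads1, -0.011 to 0.062 for Mvk, -0.16 to 0.030 for Srebf2 and -0.088 to 0.031 for Cyp51. The count of all genes that passed, 12, was less stable. It was 62 with median centring, 142 with normexp and quantile normalization, 153 with a variance trend, 28 with the mean of the probes of a gene, 6 when a probe had to be detected on all 6 arrays and 0 without the filter on dim probes (unadjusted p under 0.05 for 1208 lower, 6602 higher). When each array was left out in turn it ran from 0 to 16, with 0 without WT replicate 2 and 1 without WT replicate 1. With the replicate number as a block it was 0 (unadjusted p under 0.05 for 1282 lower, 1072 higher). The numbers were not taken as pairs, since deviations of same-numbered arrays correlated with r of 0.06, 0.15 and -0.03. A slide block could not be fitted, because all arrays lay on 1 slide. The cause of these shifts was not tested.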
